A study of Homo sapiens with 4 samples.

Results

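The HOX genes lie in 4 clusters, HOXA on chromosome 7, HOXB on chromosome 17, HOXC on chromosome 12 and HOXD on chromosome 2. Their accessible regions were the subject here. Members were the regions of the authors' deposited table that overlapped the span of a HOX gene extended by 5 kb on both sides, and 55 of 125986 listed regions did so. Of these, 12 lay in HOXA, 12 in HOXB, 17 in HOXC and 14 in HOXD. The gene set held 40 RefSeq protein-coding symbols, 39 single genes and the read-through gene HOXA10-HOXA9. The rule itself uses gene positions and no measured value.

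HOX genes encode homeodomain transcription factors that give cells their position along the body axis. Within a cluster the genes are ordered from the anterior paralog groups, which carry low numbers, to the posterior ones, and genes of like number in different clusters are paralogs of each other. Their chromatin is a textbook target of Polycomb repression and Trithorax activation, and the clusters open from the anterior end during development. Cells of an adult lineage keep a set of accessible and closed HOX genes as a trace of their origin.

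The assay was ATAC-seq, where a transposase inserts sequencing adapters into DNA that is not packed away, and the cells were A375, an established human melanoma cell line grown in serum-containing medium. One group was given octanoate, a fatty acid of medium chain length, at 1 mM for 48 h, and the other received the isopropanol vehicle, with 2 libraries in each group and no genetic change in either. The labels aim at 40 to 50 M paired-end reads per library, do not say whether the libraries came from separate cultures, and describe a single line, so p-values measure only the spread between these 4 libraries. The comparison asked which regions differ in accessibility after octanoate. The authors' deposited table gives 1 mean signal, in normalized reads over the 4 libraries, and 1 log2 fold change of octanoate over vehicle per region, with its standard error; no value of a single library is available, and the depth of each library is unknown. All 11 melanoma and melanocyte markers checked, SOX10, MITF and PMEL among them, had a listed region within 5 kb, but so had 6 of 9 markers of other cell types, and ALB and KRT5 were among those with none. The region list therefore separated the labelled cell type from others only in part.

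Promoter sequence was taken from RefSeq (GRCh38.p14) as windows from 250 bases before to 50 after an annotated start, for the 21 of 40 HOX genes that the table held. Genes that the table did not hold included HOXA5, HOXB2 to HOXB9, HOXB13, HOXC6, HOXC8 to HOXC13 and HOXD9. The sequences of 5 windows are shown for the genes on which the values below turn. HOXD8 and HOXD10 are the 2 genes whose windows lay in regions strong enough for the authors' adjusted test, the HOXA4 start lay in the member region with the smallest p, and HOXB1 and HOXD4 were the 2 HOX genes with no listed region within 5 kb. Each is written 5′ to 3′ with every CG dinucleotide in capitals.
HOXD8 (chr2:176129455-176129754, plus strand): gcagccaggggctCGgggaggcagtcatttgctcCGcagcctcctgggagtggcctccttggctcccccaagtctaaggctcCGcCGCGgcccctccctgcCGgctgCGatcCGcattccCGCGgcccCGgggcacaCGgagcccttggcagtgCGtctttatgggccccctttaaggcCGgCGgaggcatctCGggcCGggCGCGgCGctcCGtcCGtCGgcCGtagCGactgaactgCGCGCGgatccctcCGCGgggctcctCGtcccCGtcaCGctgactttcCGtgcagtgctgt
HOXD10 (chr2:176116528-176116827, plus strand): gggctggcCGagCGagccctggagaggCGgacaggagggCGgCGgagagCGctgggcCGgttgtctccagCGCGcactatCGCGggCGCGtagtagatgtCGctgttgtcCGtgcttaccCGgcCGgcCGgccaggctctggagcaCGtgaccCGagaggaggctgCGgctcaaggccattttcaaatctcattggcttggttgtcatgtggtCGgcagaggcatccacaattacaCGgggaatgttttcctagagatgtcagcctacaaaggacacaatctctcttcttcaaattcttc
HOXA4 (chr7:27130708-27131007, minus strand): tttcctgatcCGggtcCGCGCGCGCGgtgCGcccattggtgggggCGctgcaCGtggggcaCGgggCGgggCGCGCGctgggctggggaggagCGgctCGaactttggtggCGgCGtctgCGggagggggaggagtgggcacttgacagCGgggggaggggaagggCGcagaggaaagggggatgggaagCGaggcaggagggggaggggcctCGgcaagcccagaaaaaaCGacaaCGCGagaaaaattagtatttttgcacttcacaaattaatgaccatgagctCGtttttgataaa
HOXB1 (chr17:48530962-48531261, minus strand): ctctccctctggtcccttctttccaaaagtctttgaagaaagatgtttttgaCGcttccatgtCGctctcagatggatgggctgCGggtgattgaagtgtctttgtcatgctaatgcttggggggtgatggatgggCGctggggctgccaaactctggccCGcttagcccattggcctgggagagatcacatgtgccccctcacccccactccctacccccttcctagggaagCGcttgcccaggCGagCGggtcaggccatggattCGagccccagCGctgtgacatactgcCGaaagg
HOXD4 (chr2:176151300-176151599, plus strand): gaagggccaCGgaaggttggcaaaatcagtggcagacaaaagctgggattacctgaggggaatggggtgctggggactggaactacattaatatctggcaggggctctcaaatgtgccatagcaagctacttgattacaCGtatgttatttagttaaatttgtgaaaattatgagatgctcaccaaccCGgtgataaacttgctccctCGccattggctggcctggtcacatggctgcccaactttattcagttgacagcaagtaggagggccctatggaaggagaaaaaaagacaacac
The capitals number 34 CG dinucleotides in the HOXD8 window, 23 in HOXD10 and 27 in HOXA4, against 11 in HOXB1 and 4 in HOXD4. The median over 22078 windows of protein-coding genes was 21.

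Of the 27 distinct HOX windows held, 17 were from HOXA, 8 from HOXD and 1 each from HOXB and HOXC, and HOXA3 alone supplied 7. The start of the window lay in a listed region for 4 of the 17 HOXA windows, 5 of the 8 in HOXD, 0 of 1 in HOXB and 1 of 1 in HOXC. Together this was 10 of the 27 HOX windows (37%), against 66.6% of the 22078 protein-coding windows. These counts are for the windows held and give no share for the HOX genes as a whole, since regions also covered ends of genes without a window, HOXC10, HOXC13, HOXD9 and HOXB9 among them. The HOX windows in a region held a median of 27 CG dinucleotides and those in none held 15, and the same medians over all protein-coding windows were 27 and 5. CG content alone did not sort the HOX windows: the HOXA7 window held 31 and the HOXA6 window 29 with no listed region, whereas the HOXA3 window at chr7:27122978-27123277 held 7 and lay in one. Both strands of the windows were searched for TGATNNAT, a form of the joint PBX and HOX site, TTTATNG, a form bound by posterior HOX proteins, and AGGTCA, the half-site of retinoid receptors. A match was found in 3 (11.1%), 6 (22.2%) and 0 of the 27 HOX windows, against 5.21%, 8.01% and 11.9% of all protein-coding windows in the same order. Matches of different motifs shared a base in 0 HOX windows. The HOXB1 window was one of the 3 with TGATNNAT. These are letter matches only.

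Accessibility differed in amount among the clusters. Signal per kb of region is signal divided by width. Its median was 35.5 normalized reads in HOXD, 34.7 in HOXA, 24.2 in HOXB and 22.8 in HOXC, against 27.8 over all 125985 nuclear regions. Over nuclear regions it rose with mean signal, with medians of 21.0 (under 10), 31.4 (10 to 30) and 55.7 (30 and over). Median widths in these classes were 288, 496 and 1066 bp, so the scale is not free of region width or strength. HOXD and HOXA lay close together and above the other pair, but single regions overlapped widely, from 18.0 to 45.5 in HOXD, 19.2 to 54.995 in HOXA, 19.2 to 37.8 in HOXB and 14.5 to 48.3 in HOXC. With no value per library, the spread of these levels between replicates is unknown and the order of the clusters was not tested. A lower signal can come from fewer cells with the region open or from less cutting in each cell, and these cannot be told apart in bulk libraries. Levels were not corrected for chromosome copy number. The other regions of chromosome 2, which carries HOXD, had a median of 25.7 per kb, and those of chromosomes 7, 12 and 17 had 27.8, 28.8 and 31.2. HOXA and HOXD were thus above, and HOXB and HOXC below, the median of their own chromosomes.

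The clusters also differed in how much DNA was listed as open. Regions covered 16.3% of the HOXD gene spans with their flanks, 9.28% in HOXC, 9.01% in HOXA and 4.46% in HOXB, against 3.32% around all protein-coding genes. Regions at least 1 kb wide made up 9 of 14 in HOXD, 5 of 12 in HOXA, 3 of 17 in HOXC and 1 of 12 in HOXB. All HOX spans together held 12.0 regions per 100 kb, against 4.96 around all protein-coding genes. The 40 HOX genes with flanks took up 459 kb, and the 20056 protein-coding genes 1.39e+06 kb. They held 55 and 69082 regions, so the HOX genes had more regions per kb of span but fewer per gene. HOX genes are packed into less DNA per gene, so neither the density nor the covered share compares like stretches. The signal of HOX regions stood differently by scale. Mean signal was at least 30 in 32.7% of them and 22.0% of nuclear regions, and its median was 16.6 against 12.2. Per kb the medians over all regions were 27.2 and 27.8, and among regions with a mean signal of at least 30, the 18 HOX members had a median of 38.9 normalized reads per kb and all 27668 nuclear regions had 55.7.

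HOXD was the most accessible cluster by covered share. The strongest of all member regions (chr2:176096639-176098624) lay between HOXD13, which patterns the digits, and HOXD12, with a mean signal of 82.8 in the authors' deposited table. It was followed by the region over the start of HOXD10 (chr2:176116003-176118392, 2390 bp wide) with 78.2 and the region over the start of HOXD8 (chr2:176129163-176130984) with 74.7 in the authors' deposited table. HOXD9, at 59.0, and the HOXD13 start, at 51.4, were also well covered in the authors' deposited table. Accessibility was then interrupted. A stretch of 36.6 kb (chr2:176141165-176177771) held no listed region and contained the whole of HOXD4 and HOXD3, and the nearest region to HOXD4 was 10.4 kb away. At the far end, the region over the start of HOXD1 (chr2:176187569-176189122) had a mean signal of 61.2 in the authors' deposited table. It also covered one end of HAGLR, a long noncoding RNA gene of the cluster, and MIR7704, the only 1 of 8 miRNA genes in the clusters that overlapped a region.

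HOXA had its open regions spread along the cluster. The posterior end was marked by the HOXA13 start (chr7:27199206-27200725), shared with the noncoding RNA gene HOTTIP, at 57.2 in the authors' deposited table. Further towards the anterior end stood the HOXA4 start (chr7:27130021-27131244) at 60.2 in the authors' deposited table. A region over an annotated start of HOXA3 (chr7:27150333-27151270) had 51.6 in the authors' deposited table. It lay between the HOXA6 and HOXA7 spans and also overlapped the noncoding RNA gene HOXA-AS3, so it cannot be given to HOXA3 alone. This last region had 54.995 normalized reads per kb, the highest of all 55 and above 88.0% of nuclear regions. HOXA2, HOXA6, HOXA7 and HOXA9 had no region within their spans, and HOXA2 lay in the longest unlisted stretch of the cluster (25.5 kb). The single region in HOXA11 was weak, at 7.61 in the authors' deposited table.

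HOXC regions were mostly weak, and all 9 of its genes had a region within their spans. The strongest lay at HOXC13 (chr12:53938289-53939783, mean signal 50.8), a gene of hair and nail formation, in the shared span of HOXC4, HOXC5 and HOXC6 (chr12:54017658-54018578, 44.5) and at HOXC10 (chr12:53984762-53986574, 41.3) in the authors' deposited table. HOXC4, HOXC5 and HOXC6 begin at the same annotated base, so regions in their shared stretch cannot be given to 1 of the 3. HOTAIR, the noncoding RNA gene that reaches into HOXC11, overlapped regions with a highest mean signal of 28.7 in the authors' deposited table. HOXC12 had the weakest member of all, at 3.53 in the authors' deposited table.

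HOXB was the least covered. Its strongest region lay at HOXB9 (chr17:48625002-48626808) with a mean signal of 36.7, followed by one within HOXB3 with 19.2, in the authors' deposited table. The other 10 HOXB regions were at or below 13.1 in the authors' deposited table, and 8 of the 12 were below 10. HOXB1, a hindbrain gene, had no listed region within 5 kb, the nearest being 8.23 kb away. HOXB5 and HOXB7 had none within their spans. HOXB13, the prostate gene set apart from the rest of the cluster, had 1 region (chr17:48728542-48728955) with a mean signal of 11.7 in the authors' deposited table.

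Octanoate and vehicle did not differ beyond error at any HOX region. Only 3 of 55 regions, all in HOXD, reached the mean signal of 63.8 at which the authors' deposited table gives an adjusted p, and 0 of these 3 passed an adjusted p of 0.05 (DESeq2 with Benjamini-Hochberg adjustment), against 1.02% of 11185 tested regions. At an unadjusted p under 0.05, the authors' deposited table has 0 of 55 HOX regions higher and 0 lower, against 3.58% higher and 0.179% lower over all nuclear regions. At such shares few of 55 regions would be counted, so a count of 0 is near the background. No other count test was possible without values per library. The 95% interval of the log2 fold change, computed from the deposited standard error, covered 0 in all 55 regions and also covered 0.23, the median of all nuclear regions, in all 55.

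The intervals show how much could be seen. For the strongest region, between HOXD13 and HOXD12, a log2 fold change of 0.45 in either direction would have been needed for an unadjusted p of 0.05; for the weakest, at HOXC12, it was 2.53. The upper bound of the interval stayed below a doubling (log2 fold change 1) in 20 of 55 regions, 7 in HOXD, 7 in HOXA, 5 in HOXC and 1 in HOXB. In the other 35 the interval reached a doubling, which could not be told from the measured value with these standard errors. The count concerns increases only: 1 of the 20, the HOXA3 region at chr7:27122666-27123373, had an interval of -1.07 to 0.49.

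**Figure D1:**
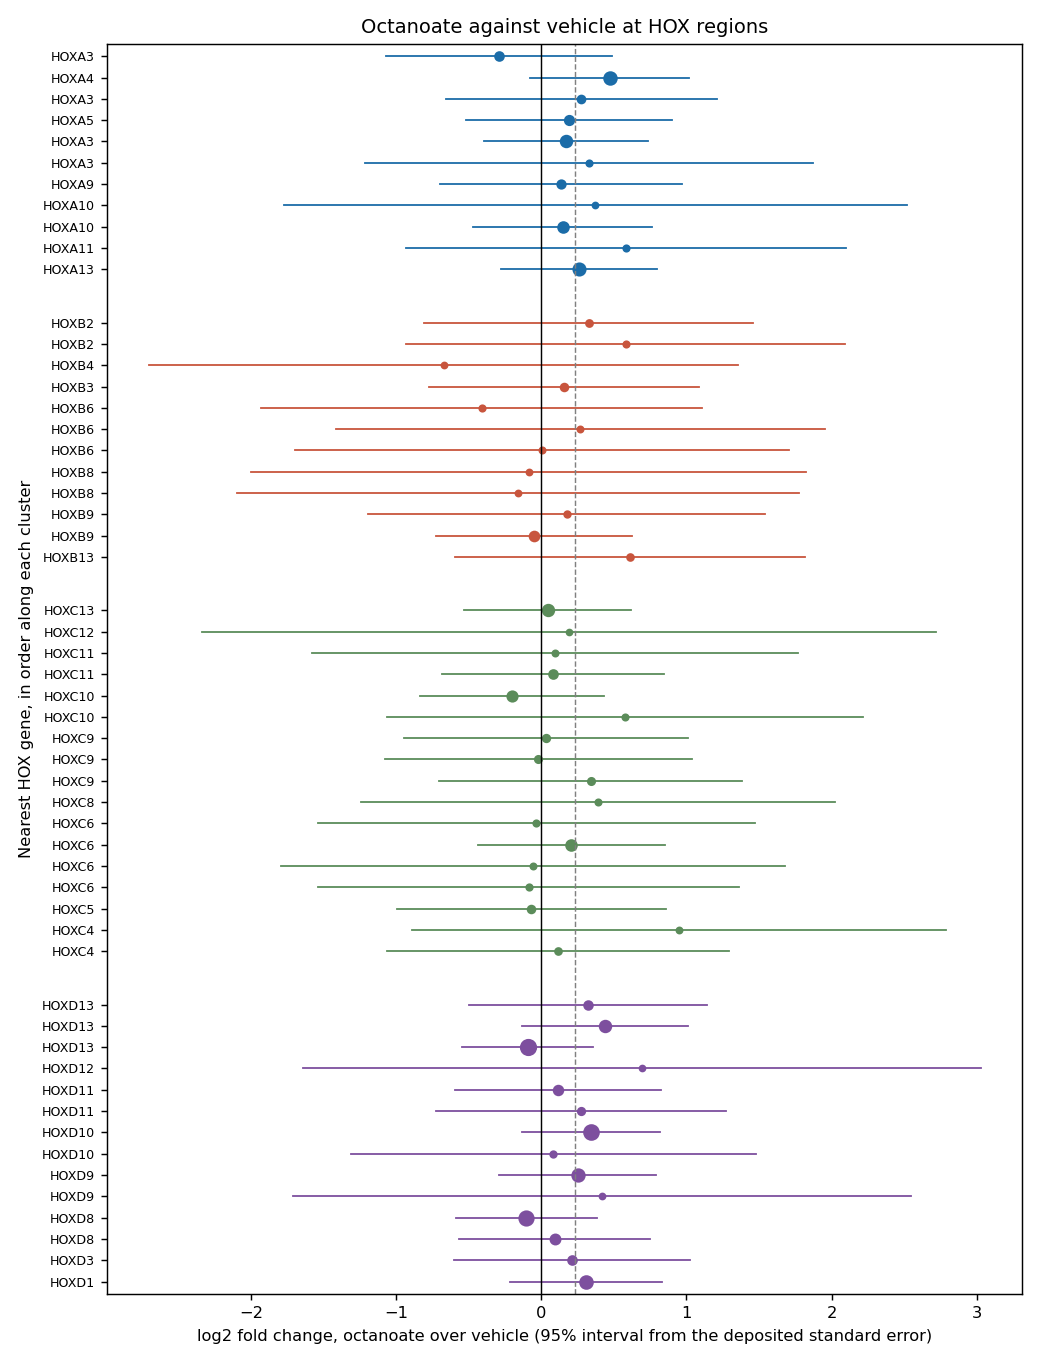
The log2 fold change of octanoate over vehicle for the HOX regions (x axis, 1 region of HOXA not drawn), labelled by the nearest HOX gene and ordered along each cluster. Points grow with mean signal, lines are 95% intervals from the standard errors in the authors' deposited table, the solid line is 0 and the dashed line the median of all nuclear regions (0.23). All intervals drawn cross both lines, and the widest belong to weak regions.

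The 3 tested regions show the best measured values. The region between HOXD13 and HOXD12 had a log2 fold change of -0.09 (standard error 0.23, 95% interval -0.55 to 0.36, adjusted p 0.881, DESeq2) in the authors' deposited table. The HOXD8 start, whose CG-rich window is printed above, gave -0.10 (standard error 0.25, interval -0.59 to 0.38, adjusted p 0.880, DESeq2) in the authors' deposited table. At the HOXD10 start it was 0.34 (standard error 0.24, interval -0.13 to 0.82, adjusted p 0.518, DESeq2) in the authors' deposited table. A pair of the 3 thus lay slightly below 0 and 1 above, and their intervals overlapped.

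The smallest p of the 55 belonged to the HOXA4 start, where the log2 fold change was 0.47 (standard error 0.28, interval -0.08 to 1.02, unadjusted p 0.0914, DESeq2) in the authors' deposited table; its mean signal of 60.2 was just under the limit for an adjusted p. Next came the HOXD13 start with 0.44 (standard error 0.29, unadjusted p 0.133, DESeq2) in the authors' deposited table. HOXA13 and HOXD1, at the posterior and anterior end of their clusters, gave 0.26 and 0.31 in the authors' deposited table. In HOXC the strong regions gave 0.04 at HOXC13, 0.21 in the shared HOXC4 to HOXC6 span and -0.20 at HOXC10 in the authors' deposited table. The HOXB9 region gave -0.05 (interval -0.73 to 0.63) in the authors' deposited table. The 18 regions with a mean signal of at least 30 therefore ran from -0.20 to 0.47.

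The extreme values came from weak regions. The highest log2 fold change, 0.95 (interval -0.89 to 2.79), was at a region in the HOXC4 span (chr12:54036907-54037148) with a mean signal of 5.47 in the authors' deposited table. The lowest, -0.67 (interval -2.70 to 1.36), was at HOXB4 (chr17:48578204-48578435) with a mean signal of 4.66 in the authors' deposited table. Regions nearest HOXD12 (0.69), HOXB13 (0.61), HOXA11 (0.58), HOXB2 (0.58) and HOXC10 (0.58) were also high in the authors' deposited table, all with mean signals of 11.7 or less. The lowest in HOXA, -0.29 (interval -1.07 to 0.49), was at another HOXA3 start with a mean signal of 28.2 in the authors' deposited table.

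The 4 clusters were compared by their medians. The median log2 fold change was 0.26 in HOXD, 0.23 in HOXA, 0.082 in HOXB and 0.081 in HOXC, and 0.17 over all 55 regions, from the values in the authors' deposited table. Over all nuclear regions it was 0.23 and over tested regions 0.19, a shift above 0 shared by the whole table. Relative to the nuclear median the HOX regions stood at -0.061. Values above 0 were found in 12 of 14 regions in HOXD, 10 of 12 in HOXA, 11 of 17 in HOXC and 7 of 12 in HOXB, in all 72.7%, against 72.1% of nuclear regions. By unweighted median, HOXD and HOXA were thus near the nuclear value and HOXB and HOXC nearer to 0.

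The largest difference between medians, HOXC minus HOXD, was -0.18. Regions of a cluster share the 4 libraries and are not replicates, so the 6 differences between clusters were not tested. Means weighted by 1 over the squared standard error were 0.17 in HOXD, 0.17 in HOXA, 0.10 in HOXB and 0.072 in HOXC. Over all nuclear regions the weighted mean was 0.21, so by this measure all 4 clusters lay below the background, also without a test. The HOXB median depended on which regions entered, at 0.0053 with no flank and 0.17 over the whole stretch of the cluster, and the HOXC median was 0.044 with no flank. HOXD and HOXA, with the higher median fold changes, also had the higher median mean signal, 37.1 and 30.6, against 12.2 in HOXC and 7.72 in HOXB, and the part of signal in the fold changes was not tested. The other regions of the 4 chromosomes had nearly equal medians, 0.24 each on chromosomes 2, 7, 12 and 17.

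**Figure D2:**
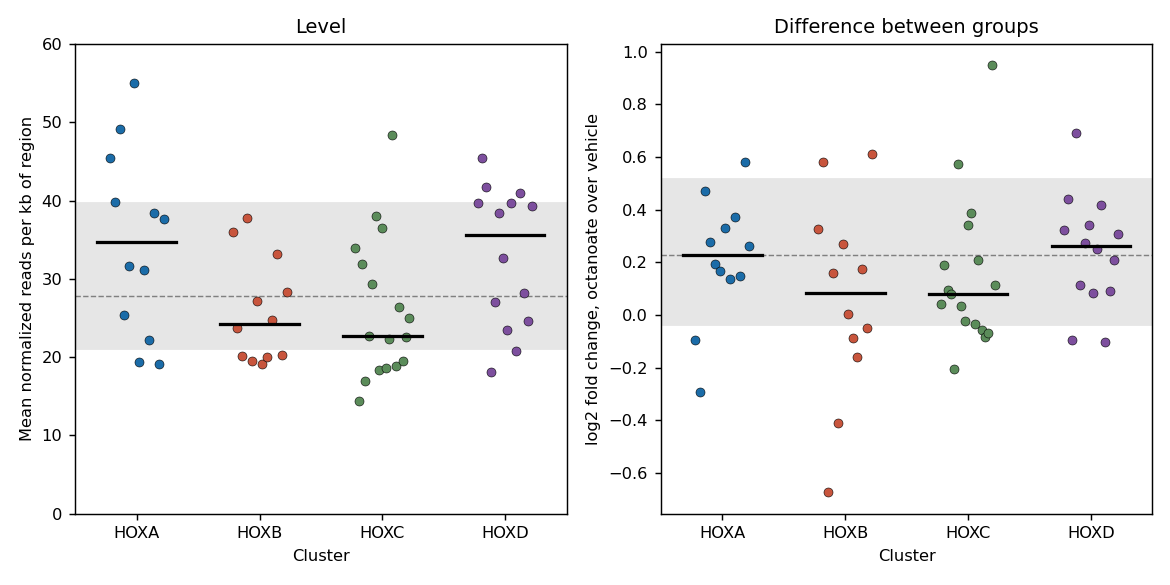
Mean normalized reads per kb (left) and log2 fold change of octanoate over vehicle (right) for the regions of each cluster, 1 point per region in chromosome order, from the authors' deposited table. Black bars are cluster medians, the grey band spans the quartiles of all nuclear regions and the dashed line their median. HOXA and HOXD have the higher medians in both panels (34.7 and 35.5 reads per kb, 0.23 and 0.26), and points of all 4 clusters overlap.

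Distance to gene ends was a further split, made with either end of a protein-coding span because windows at starts were held for only some HOX genes. Median log2 fold changes were 0.15 for the 32 members within 1 kb of an end and 0.17 for the other 23, and 0.14 and 0.25 for nuclear regions split in the same way. These differences were not tested. By mean signal, HOX members had medians of 0.18 (under 10), 0.16 (10 to 30) and 0.16 (30 and over), each lower than the 0.27, 0.23 and 0.20 of all nuclear regions in the same class, also without a test.

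**Figure D3:**
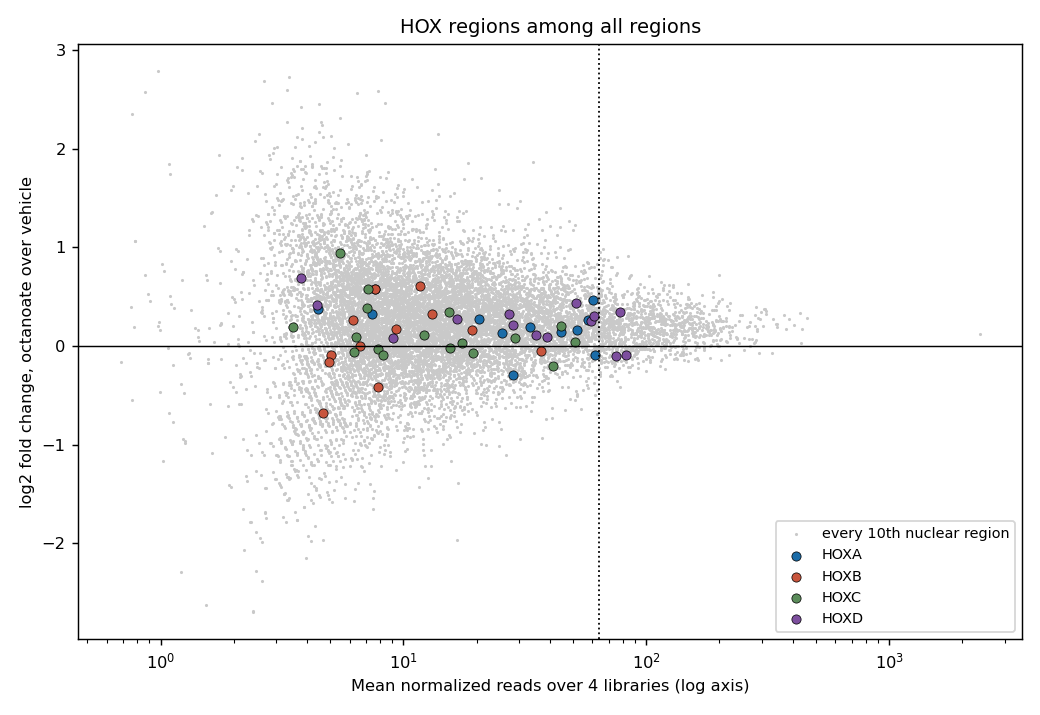
The log2 fold change of octanoate over vehicle (y axis) against mean normalized reads (x axis, log scale) for the 55 HOX regions, coloured by cluster, over every 10th nuclear region in grey, from the authors' deposited table. The dotted line marks the lowest mean signal with an adjusted p (63.8). The HOX points lie within the grey cloud, and 3 HOXD points lie to the right of the line.

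Genes that act with or on HOX genes were described from 4 lists, with 64 genes, 60 of them with a region within 5 kb. Across their 292 regions 42 were tested and 0 had an adjusted p under 0.05 (DESeq2), and at an unadjusted p under 0.05 the authors' deposited table has 6 higher (2.05%, against 3.58% of nuclear regions) and 0 lower. The count is not above the background. The HOX cofactors, the PBX, MEIS and PKNOX homeodomain proteins that bind DNA together with HOX proteins, held 3 of these 6 among 58 regions (5.17%, against 3.58%), and their median log2 fold change was 0.18. The 3 lay at PBX4 (0.47, adjusted p 0.312, DESeq2), PKNOX2 (1.14) and MEIS2 (0.88) in the authors' deposited table, the last pair with no adjusted p given. MEIS3 had no region within 5 kb.

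Chromatin regulators of HOX genes, the Polycomb and Trithorax proteins with their partners, had 98 regions, whose median log2 fold change was 0.14, and 1 was higher at an unadjusted p under 0.05, at PHC2, a Polycomb subunit (0.45, adjusted p 0.0932, DESeq2, in the authors' deposited table). EZH2, the Polycomb methyltransferase, had 2 regions with a median of 0.19, and KMT2A, the Trithorax methyltransferase, had 4 with a median of -0.0052. Upstream signals, the retinoid, CDX, GDF11 and WNT3A genes, had 77 regions with a median of 0.15, and 1 region at RARB, a retinoic acid receptor, was higher at an unadjusted p (0.84, p 0.00287, no adjusted p given, DESeq2, in the authors' deposited table). Neighbours of the clusters and related homeobox genes had 59 regions with a median of 0.20, and 1 region at EN2 was higher at an unadjusted p (0.31, p 0.0314, adjusted p 0.278, DESeq2, in the authors' deposited table). EVX2, beside HOXD13, had 2 regions with a median of 0.30, 1 of them also a HOXD13 member, and the 1 region of PRAC2 was the HOXB13 member, so the list counts these again. EVX1, beside HOXA13, had no region within 5 kb.

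Noncoding genes and the stretches between members complete the clusters. Of 28 long noncoding RNA genes within them, 20 overlapped a listed region. Besides those named above, HOXA-AS2 overlapped the HOXA3 region at -0.29 and HOXC-AS3 the HOXC10 region at -0.20 in the authors' deposited table. None of the genes of the miR-10 and miR-196 families, MIR10A, MIR10B, MIR196A1, MIR196A2 and MIR196B, overlapped a region. Between the first and the last gene of each cluster, 6 regions lay beyond 5 kb of any HOX gene, 4 in the gap before HOXB13 and 2 between HOXD8 and HOXD4. Their log2 fold changes ran from 0.11 to 0.55 in the authors' deposited table, and the smallest unadjusted p was 0.210 (DESeq2).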

How the data were processed

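ATAC-seq libraries were made from A375 cells, 4 in all, 2 with octanoate and 2 with vehicle, grouped by their titles. Per the submitters' processing notes the tools were Trim Galore, cutadapt, FastQC, Bowtie2, Picard, MACS2, featureCounts, DESeq2 and bedtools 2.29.1, with the build hg38; their settings, whether cut positions were offset for Tn5, and how regions were merged are not given in the sources used here. The deposited signal is the authors' mean normalized read count over the 4 libraries, on a scaling not given. Each deposited log2 fold change sets octanoate over vehicle and has a standard error, and the deposited score is their quotient. The deposited p-value is two-sided, and the authors' adjusted p equalled Benjamini-Hochberg adjustment over 11185 regions, those whose mean reached 63.8; elsewhere it was listed as 1 and was read here as not tested. Regions narrower than 200 bp did not occur once starts were counted from 1.

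Gene spans and promoter windows came from RefSeq (GRCh38.p14, 20056 protein-coding entries). A region was a member if it overlapped a HOX span extended by 5 kb, and its nearest gene was the shortest one overlapped or else the closest. Signal per kb is mean signal divided by width. Intervals of 95% are the log2 fold change plus or minus the normal quantile times the deposited standard error. No test of the groups was made here, since there were 0 columns per library. Named regions were those with an adjusted p under 0.05, the strongest, highest and lowest of each cluster, and those over starts in the promoter table; as too few regions were tested, highest and lowest were taken over all members, and other regions of note were named after their values were seen. A few genes are not reported here by name, and 1 of the cofactor list was left out of its counts. The members and lists were chosen with earlier results of these data known. Adjustment and overlap code was tested on simulated data. Python 3.11.15 with pandas 2.3.3, numpy 2.4.6, scipy 1.17.1 and matplotlib 3.10.9 was used.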

Additional observations from a re-analysis of the deposited data

How the results depend on the processing

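The count of 0 HOX regions with an adjusted p under 0.05 was 0 under all 8 alternatives: adjustment over all regions or over those at or above the 25th percentile of mean signal, an adjusted p under 0.1 or 0.01, centring on the tested median, flanks of 0 kb or 10 kb, and the whole stretch of each cluster. With only 2 or 3 HOX regions tested under 6 of these, this says little about stability. At an unadjusted p under 0.05 it was 0 in each direction with either flank and after centring. Each median log2 fold change was set against the standard error of its weighted mean, which treats regions as independent. Since regions share the 4 libraries, that measure cannot settle whether a median is stable. In HOXB it was 0.18, above the median of 0.082, so a fall to 0 would have counted as unmoved. The medians moved by less than that standard error with other flanks, whole stretches, stronger regions and weighting. They also did with summed signal and with regions nearest genes of paralog groups 1 and 13 left out, both added after seeing the data. Some still moved by over 1.5 times: HOXB gave 0.0053 with no flank and without groups 1 and 13, 0.16 with stronger regions and 0.17 over the whole stretch, HOXC gave 0.044 with no flank and with stronger regions, and HOXD gave 0.17 with weighting and with summed signal. Leaving out each cluster in turn gave 0.12 to 0.20 for all HOX regions. Tested regions alone gave -0.095 for all HOX regions and for HOXD, which are the same 3 regions. Centring on the tested median gave -0.019 (all HOX), 0.041 (HOXA), -0.10 (HOXB), -0.11 (HOXC) and 0.076 (HOXD). Centring on the nuclear median gave -0.061, -0.0014, -0.15, -0.15 and 0.033 in the same order, by construction, since 1 constant was subtracted. No paired analysis was possible because single libraries have no column in the deposited table, and for the same reason leaving out a replicate, other scalings and other count tests were not run. In HOXA, HOXB and HOXC no region was tested. Wide intervals limit what can be said of the weak regions, most of all in HOXB, and HOX promoter windows were held for only 1 HOXB gene.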
